A study of Homo sapiens with 4 samples.

Results

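The IFIT genes encode interferon-induced proteins with tetratricopeptide repeats, and 4 of them, IFIT1, IFIT2, IFIT3 and IFIT5, are described here in SJSA-1 cells with and without knockdown of ZNF217. They were found by gene name among 20024 genes and joined to the raw counts by gene identifier. The members were selected on their knockdown and control levels in these same libraries, so those values are a description and carry no test. SJSA-1 is an established human osteosarcoma cell line, and ZNF217 is a zinc finger transcription factor. The 2 groups were ZNF217 knockdown and control, with 2 libraries each, all from the same cell line. No source used here names the reagent that lowered ZNF217 or the treatment of the control cells, and the labels do not say whether the replicates were separate cultures. P-values therefore measure only the spread between these libraries, which may be technical.

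IFIT transcripts are scarce in most resting cells and are among the most strongly induced targets of interferon. Viral RNA or DNA is first sensed inside the cell, interferon is secreted, and its receptor activates transcription factors that bind the interferon-stimulated response element in target promoters. The factor IRF3 can also switch on some IFIT genes directly, without secreted interferon. IFIT1 binds capped RNA that lacks ribose methylation and keeps it from being translated. IFIT2 and IFIT3 assemble with IFIT1, and IFIT3 stabilises IFIT1 and strengthens its hold on RNA. IFIT5 acts alone and binds RNA with triphosphate ends.

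The 4 genes lie within 137 kb on the plus strand of chromosome 10 (GRCh38, GENCODE release 29). In order along the chromosome, IFIT2 (ENSG00000119922) spans chr10:89283694-89309276, IFIT3 (ENSG00000119917) chr10:89327894-89340971, IFIT1 (ENSG00000185745) chr10:89392546-89406486 and IFIT5 (ENSG00000152778) chr10:89414586-89421001. The principal transcript of each has 2 exons and a coding sequence of 1416 to 1470 bases. IFIT2 and IFIT3 were the most alike of the 4 members, with 73.0% identical bases over their aligned coding sequences, and IFIT2 and IFIT5 the least alike, with 61.7%. No pair of the 4 members shared a stretch of 50 identical bases in any annotated transcript. IFIT1 shared 38 overlapping 50-base words with IFIT1B (ENSG00000204010), another protein-coding family gene in the cluster, so reads of that pair could have been split. The pseudogene IFIT6P also lies in the cluster and was not compared. IFIT1B itself had 1 and 3 counts in the knockdown libraries and 0 and 1 counts in the control libraries, too few to test.

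The promoters are shown because the response element is the feature that joins these genes to the interferon response. The letters GAAA, any 2 bases and GAAA again, the core of the element, were searched on both strands in windows from 250 bases before to 50 bases after each RefSeq start (GRCh38.p14), where the reverse strand reads TTTC, 2 bases and TTTC. Windows were matched by symbol for 3 of the 4 members, IFIT1, IFIT3 and IFIT5, and IFIT3 has a window at each of 2 starts. In the upstream stretches below, read on the plus strand, capitals mark the matches.
IFIT3, chr10:89327747-89327893: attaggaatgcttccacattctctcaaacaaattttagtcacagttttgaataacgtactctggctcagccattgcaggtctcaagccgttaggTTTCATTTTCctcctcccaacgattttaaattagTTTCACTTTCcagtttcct
IFIT1, chr10:89392373-89392545: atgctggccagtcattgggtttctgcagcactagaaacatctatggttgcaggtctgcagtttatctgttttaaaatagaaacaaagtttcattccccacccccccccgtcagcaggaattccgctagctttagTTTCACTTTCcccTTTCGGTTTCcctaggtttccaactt

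Each matched member held at least 2 matches in every window, where 3.57% of 35116 windows of the same length held 1 or more and 0.259% held 2 or more. All were on the minus strand, so they begin with TTTC in the direction of transcription. IFIT5 held 3 matches close to its start, and they are set below beside the sites of the other members, with the match in capitals.
IFIT3, first start, chr10:89327867-89327892: taaattagTTTCACTTTCcagtttcc
IFIT3, second start, chr10:89332470-89332495: tccatcagTTTCACTTTCctttcccc
IFIT3, second start, farther match, chr10:89332427-89332452: agattctgTTTCAGTTTCccctcaag
IFIT1, farther match, chr10:89392499-89392524: agctttagTTTCACTTTCccctttcg
IFIT1, nearer match, chr10:89392512-89392537: ctttccccTTTCGGTTTCcctaggtt
IFIT5, farthest match, chr10:89414515-89414540: ctattaagTTTCGGTTTCtgaagctt
IFIT5, middle match, chr10:89414541-89414566: acgtttagTTTCGATTTCttaagttt
IFIT5, match at the start, chr10:89414556-89414581: ttcttaagTTTCAGTTTCtgagcgct
The letters TTTCACTTTC occurred in IFIT3 at both starts and in IFIT1, TTTCGGTTTC in IFIT1 and IFIT5, and TTTCAGTTTC in IFIT5 and at the second start of IFIT3. The matches began 156 and 122 bases before the first start of IFIT3, 94 and 51 bases before its second, 116 and 103 bases before the start of IFIT1, and 45, 19 and 4 bases before that of IFIT5. A match of letters does not show that a factor binds there.

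Library totals were 21466327 to 24487126 counts. ZNF217 was at 37.6 and 31.9 CPM (counts per 1000000, over a library total scaled by TMM) in knockdown and at 66.2 and 73.4 CPM in control, so its mean in knockdown was 49.7% of that in control, the direction the labels state. Over tested genes the median absolute difference was 0.13 on the log2 CPM scale between the knockdown libraries and 0.48 between the controls. Of 10 osteoblast lineage markers, SPARC and RUNX2 were among those present, while SP7, ALPL, COL1A2, IBSP and BGLAP had at most 6 counts in any library. The summed level of 10 blood cell markers was 0.898 and 1.29 CPM in knockdown and 0.647 and 0.0446 CPM in control. ITGAM, the only one of them with enough counts to test, had 16 and 10 counts in knockdown and 3 and 0 counts in control. HBB and LILRA4 had 0 counts in every library, and the part of such markers in the results below was not tested.

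Knockdown cells held more transcript of every member, in the order IFIT3, IFIT2, IFIT1 and IFIT5 by size of the difference, and for each member both knockdown libraries lay above both controls. Among all 12965 genes tested, 25.4% lay above both controls in both knockdown libraries. Because the genes were selected from this contrast, nothing is read from that comparison. By edgeR's quasi-likelihood test 0 of the 4 members passed an adjusted p under 0.05, as did 0% of all tested genes in either direction. At an unadjusted p under 0.05, edgeR gave 857 higher genes (6.61%) and 833 lower ones (6.42%). At an adjusted p under 0.05, DESeq2 called 209 genes higher (1.61%) and 264 lower (2.04%). Of the 4 members DESeq2 called 3 higher and 0 lower. The members were selected from this contrast, so the calls of either tool are no test of them. In bulk RNA, more transcript per cell cannot be told apart from more cells that express the gene.

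IFIT3, the partner that stabilises IFIT1, was at 229 and 217 CPM in the knockdown libraries (5863 and 5204 counts) and at 20.2 and 16.2 CPM in control (437 and 364 counts). The lowest knockdown library thus lay far above the highest control, and the libraries of each group lay close together. The group means were 223 ± 8.38 CPM in knockdown and 18.2 ± 2.80 CPM in control (SD, n = 2 each), a log2 fold change of 3.61 with a standard error of 0.21. By log2 fold change it ranked at place 63 from the top of all tested genes. Scaled per length, its mean level exceeded that of 96.3% of tested genes in knockdown and of 61.2% in control.

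IFIT2, which joins IFIT3 in the antiviral complex, was at 80.1 and 69.1 CPM in the knockdown libraries and at 14.2 and 9.68 CPM in the control libraries. The groups did not overlap, and control replicate 2 was the lowest library. The means were 74.6 ± 7.81 CPM in knockdown and 11.9 ± 3.19 CPM in control (SD, n = 2 each), a log2 fold change of 2.64 with a standard error of 0.27.

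IFIT1, the member that binds unmethylated caps, was at 63.7 and 56.6 CPM in the knockdown libraries and at 14.2 and 18.3 CPM in the control libraries. The groups again did not overlap, but here control replicate 2 was the higher of the controls, unlike for the other members. The means were 60.2 ± 5.06 CPM in knockdown and 16.2 ± 2.90 CPM in control (SD, n = 2 each), a log2 fold change of 1.89 with a standard error of 0.23.

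IFIT5, which binds triphosphate RNA without the others, was at 33.1 and 32.4 CPM in the knockdown libraries (847 and 776 counts) and at 25.8 and 16.5 CPM in control (559 and 370 counts). The knockdown libraries lay just above control replicate 1, and the gap between the groups was smaller than the gap between the controls. The means were 32.7 ± 0.498 CPM in knockdown and 21.2 ± 6.60 CPM in control (SD, n = 2 each), a log2 fold change of 0.63 with a standard error of 0.28. Leaving out control replicate 2 gave a log2 fold change of 0.34, and leaving out control replicate 1 gave 0.98.

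**Figure D1:**
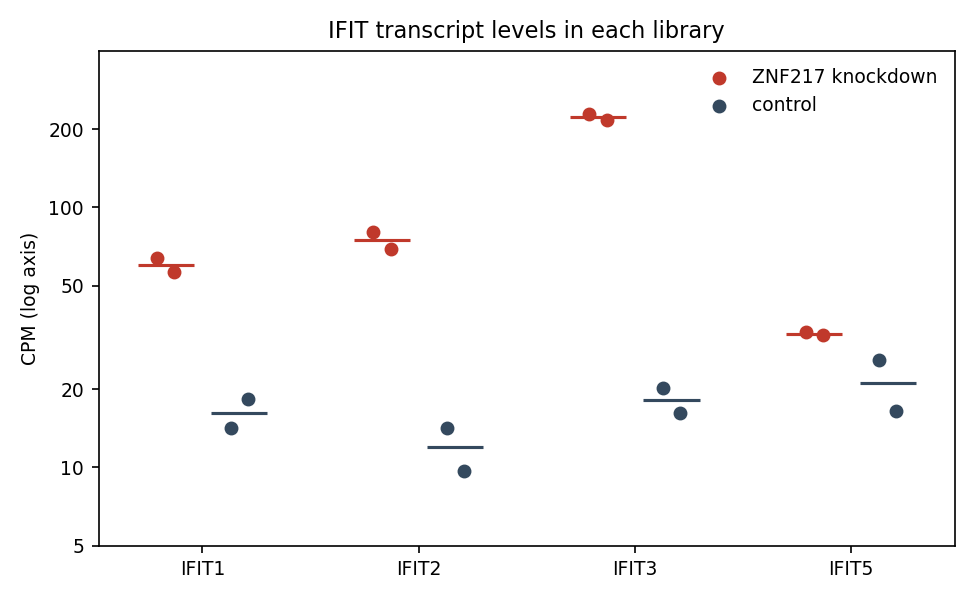
Level of each IFIT gene in CPM on a log axis, with 1 point per library and a bar at the mean of the 2 libraries, ZNF217 knockdown left of control. Knockdown points lie above control points for every gene, with the widest gap at IFIT3 (223 against 18.2 CPM on average) and the narrowest at IFIT5 (32.7 against 21.2 CPM).

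The members varied less between the knockdown libraries than between the controls. Knockdown replicate 2 minus knockdown replicate 1 was between −0.21 for IFIT2 and −0.03 for IFIT5 on the log2 CPM scale. Control replicate 2 minus control replicate 1 was −0.65 for IFIT5, −0.55 for IFIT2, −0.32 for IFIT3 and 0.37 for IFIT1, beside the median absolute difference of 0.48 between the controls over all tested genes. For IFIT3 the 4 differences between a knockdown and a control library ran from 3.42 to 3.82, and for IFIT2 from 2.28 to 3.05. For IFIT1 they ran from 1.63 to 2.17, and for IFIT5 from 0.32 to 1.00.

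Levels can be compared between genes only per length, so counts were divided by the deposited gene length and scaled to a sum of 1000000 per library (TPM). In the knockdown libraries the order was IFIT3, IFIT2, IFIT1 and IFIT5 in both replicates, with means of 285 ± 19.4, 59.5 ± 8.02, 42.4 ± 4.84 and 26.3 ± 1.20 TPM (SD, n = 2 each). No neighbours in that order overlapped. In the control libraries the order by mean was IFIT3, IFIT5, IFIT1 and IFIT2, at 22.3 ± 6.38, 16.5 ± 7.23, 10.7 ± 0.470 and 9.18 ± 3.63 TPM (SD, n = 2 each). The values of IFIT3 and IFIT5 overlapped, although IFIT3 was above IFIT5 within each library. Both values of IFIT5 lay above both of IFIT1, in control replicate 2 only narrowly at 11.4 against 11.0 TPM, and their means differed by less than the SD of IFIT5. IFIT2 was above IFIT1 in control replicate 1 and below it in control replicate 2.

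The make-up of the family's transcripts differed accordingly. The 4 members together had 437 and 390 TPM in the knockdown libraries and 70.6 and 46.9 TPM in the control libraries. IFIT3 made up 68.4% and 69.7% of that sum in knockdown and 38.0% in each control. IFIT5 made up 6.22% and 6.54% in knockdown and 30.6% and 24.3% in control. IFIT1 took 10.5% and 9.99% in knockdown against 14.7% and 23.5% in control. The share of IFIT2 overlapped between the groups, at 14.9% and 13.8% in knockdown and 16.6% and 14.1% in control. The ratio of IFIT3 to its partner IFIT1 was 6.53 and 6.97 in knockdown, against 2.59 and 1.61 in control.

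**Figure D2:**
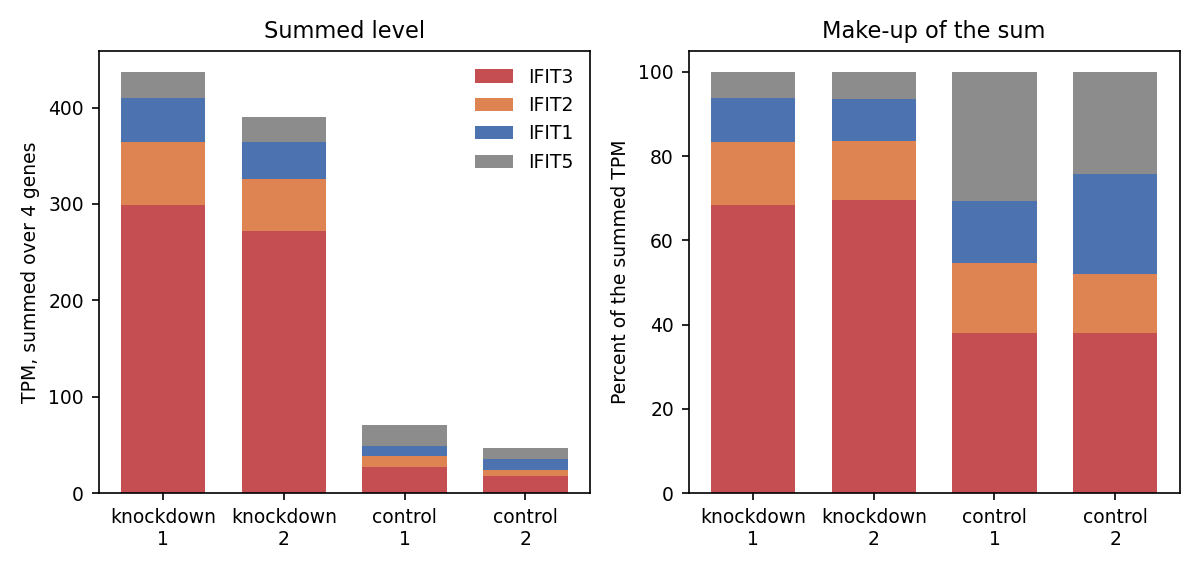
Summed level of the 4 IFIT genes in TPM (left) and the percent of that sum from each gene (right), with 1 bar per library, ZNF217 knockdown left of control. The sum reaches 437 and 390 TPM in knockdown and 70.6 and 46.9 TPM in control, and IFIT3 takes the larger part of it in knockdown.

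The genes beside the cluster were examined because position played no part in the choice of members. Within 500 kb of the cluster, 11 other genes were in the count table and 8 of them were tested. Of these 5 were above both controls in both knockdown libraries and 1 was below, beside 25.4% and 22.9% of all tested genes. Their median log2 fold change was 1.08, against −0.01 over all tested genes. ANKRD22 and CH25H, with 6 and 2 counts over both controls, passed the low-count filter only through knockdown. Among tested genes they could therefore not lie below, and they raise the median.

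LIPA, the lysosomal acid lipase, lies on the opposite strand, where its annotated span covers IFIT2, IFIT3 and IFIT1 and ends before IFIT5. It was at 20.5 and 17.2 CPM in the knockdown libraries and at 28.7 and 28.9 CPM in the control libraries, so it was the neighbour that lay lower, with a log2 fold change of −0.61. Its exons share 65 bases with those of IFIT2, which is 1.58% of the IFIT2 exons, and none with IFIT1, IFIT3 or IFIT5. IFIT2 also shares 356 exon bases with the non-coding gene AL353751.1, which is not in the count table. The strand setting of the counting is unknown, so reads in the bases shared with LIPA cannot be assigned to either gene. AL353751.1 is annotated on the same strand as IFIT2, so strand could not separate reads in the bases shared with it under any setting.

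CH25H, an interferon-stimulated enzyme that makes an antiviral oxysterol, lies 76.4 kb before the cluster. It had 41 and 30 counts in the knockdown libraries and 2 and 0 counts in the control libraries. SLC16A12, a monocarboxylate transporter 9.3 kb beyond IFIT5, had 13 and 6 counts in knockdown and 0 in both controls, too few to test. With the controls set at a floor of 3 counts per library, its observed mean in knockdown was 2.78-fold that floor. The knockdown counts were taken as exact, so this is no lower bound. The other higher neighbours were named after their values were seen. They were ANKRD22, at 11.5 and 7.26 CPM in knockdown and 0 and 0.268 CPM in control, STAMBPL1, a deubiquitinase gene, at 57.5 and 57.5 CPM in knockdown and 17.5 and 26.3 CPM in control, and ACTA2 and FAS, which encode smooth muscle actin and a death receptor and had log2 fold changes of 1.25 and 0.92. STAMBPL1, ACTA2 and FAS overlap in the annotation, so their counts are uncertain. On the far side of the cluster PANK1, a pantothenate kinase, and KIF20B, a kinesin, had overlapping groups.

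**Figure D3:**
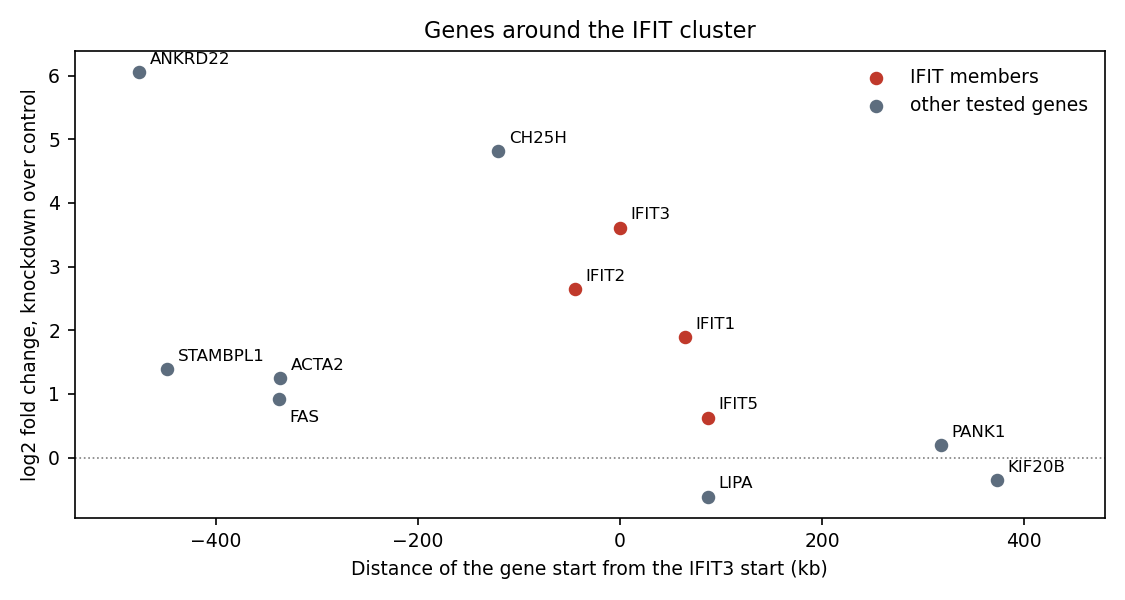
Log2 fold change (ZNF217 knockdown over control) of the tested genes within 500 kb of the IFIT cluster against the distance of their start from that of IFIT3 in kb, IFIT members in red. CH25H and ANKRD22 lie above the members, but their control counts were 6 or fewer, so their fitted values depend on the prior count, and LIPA lies below the zero line at −0.61.

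Other genes of the interferon pathway were taken from lists written with earlier results of these data known, and they are described by counts. Among the other antiviral effectors 33 of 44 tested genes were above both controls in both knockdown libraries, 0 were below and 11 overlapped. Their median log2 fold change was 1.01. Scarce effectors such as IFI44L, TRIM22 and CMPK2 passed the low-count filter only through knockdown, so among tested genes they could not lie below. Among all pathway lists together 52 of 103 tested genes were above and 12 below, beside 25.4% and 22.9% of all tested genes. By edgeR 0 genes of any list passed. DESeq2 called 17 of these 103 genes higher and 0 lower, beside 1.61% and 2.04% of all tested genes. Of the higher ones 12 were effectors. The lists were not independent of these data, so such calls are no test of the pathway. Without control replicate 2 the effectors above were 43 and those below 1, and without control replicate 1 they were 34 and 9. Over all pathway lists 73 lay above and 23 below without control replicate 2, and 62 and 33 without control replicate 1. Of all tested genes 43.4% lay above and 42.4% below without control replicate 2, and 46.8% and 43.6% without control replicate 1. The shares were 31.4% and 28.4% without knockdown replicate 2, and 30.9% and 29.7% without knockdown replicate 1. They are the background for the counts with a library left out that are given below for each list.

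The 2 effectors with the highest mean CPM over the 4 libraries, IFITM3 and ISG15, had overlapping groups. IFITM3, a membrane protein that blocks viral entry, was at 538 and 557 CPM in knockdown and 252 and 615 CPM in control, and it has close paralogs that could share its reads. ISG15, a ubiquitin-like modifier, was at 261 and 316 CPM in knockdown and 137 and 324 CPM in control. For both genes control replicate 2 was above the knockdown libraries. IFI44 and ZC3HAV1, abundant effectors named after their values were seen, had groups apart. IFI44 was at 317 and 299 CPM in knockdown and 114 and 129 CPM in control. ZC3HAV1, an antiviral RNA-binding protein, was at 291 and 283 CPM in knockdown and 99.4 and 102 CPM in control. The effectors with the largest fitted differences were scarce. IFI44L had 24 and 31 counts in knockdown and 0 in both controls. Its observed mean in knockdown was 8.18-fold a floor of 3 counts per control library, without the counting error of the knockdown counts. TRIM22, an antiviral ubiquitin ligase, was at 0.742 and 0.625 CPM in knockdown and 0 and 0.0446 CPM in control.

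Among RNA and DNA sensors and their adaptors 8 of 14 tested genes were above both controls (57.1%) and 2 were below (14.3%). The shares of all tested genes were 25.4% and 22.9%. The median log2 fold change of this list was 0.60. DDX58, which encodes the RNA sensor RIG-I, was at 175 and 166 CPM in knockdown and 60.4 and 88.0 CPM in control. IFIH1, which encodes the RNA sensor MDA5, was at 25.7 and 23.1 CPM in knockdown and 5.87 and 7.54 CPM in control. IFI16, a DNA sensor, was at 133 and 118 CPM in knockdown and 74.3 and 59.7 CPM in control. All 3 are themselves interferon-stimulated, and none of their groups overlapped. AIM2, another DNA sensor, had 24 and 17 counts in knockdown and 0 in both controls. Its observed mean in knockdown was 6.04-fold the same floor, again without the counting error of the knockdown counts. It passed the low-count filter only through knockdown, so among tested genes it could not lie below. The counts above and below in this list were 9 and 4 without control replicate 1, and the same without control replicate 2. They were 8 and 4 without knockdown replicate 2.

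The interferons themselves were almost unmeasured. Of 21 ligand genes, 16 had 0 counts in all 4 libraries, IFNB1 among them, where 0 counts allow up to 0.117 to 0.139 CPM per library and cover counting error only. No ligand gene was tested. The highest was IFNE, an interferon of epithelial tissue, with 10 and 11 counts in knockdown and 6 and 3 counts in control. IFNL1 had 0 and 3 counts in knockdown and 0 in control.

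Of 13 tested receptors and signal transducers 5 were above both controls (38.5%) and 2 below (15.4%), beside 25.4% and 22.9% of all tested genes. Their median log2 fold change was −0.0044. IFNGR2, a chain of the receptor for interferon gamma, was at 82.0 and 84.3 CPM in knockdown and 87.1 and 263 CPM in control, with control replicate 2 far above the other 3 libraries. The kinase JAK1 was at 81.1 and 77.7 CPM in knockdown and 120 and 142 CPM in control. IFNLR1, the receptor chain for lambda interferons, was at 1.33 and 0.50 CPM in knockdown and 1.06 and 2.19 CPM in control. Outside the rule for named genes, a pair of transcription factors that act below the receptor was chosen after their values were seen. STAT2 was at 36.3 and 35.4 CPM in knockdown and 22.1 and 24.2 CPM in control. IRF9 overlapped, at 1.44 and 1.5 CPM in knockdown and 1.43 and 1.83 CPM in control. The counts above and below in this list were 9 and 2 without control replicate 2, and 5 and 6 without control replicate 1.

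Interferon regulatory factors had 2 of 8 tested genes above both controls (25%) and 2 below (25%), near the 25.4% and 22.9% of all tested genes. IRF1, an activator, was at 39.9 and 43.5 CPM in knockdown and 16 and 15.1 CPM in control, a log2 fold change of 1.42. IRF3, which the sensors activate, was at 81.7 and 96.3 CPM in knockdown and 76.2 and 118 CPM in control. IRF5 was scarce, at 0.546 and 0.208 CPM in knockdown and 0.740 and 2.32 CPM in control. The counts above and below were 5 and 2 without control replicate 2, and 2 and 5 without control replicate 1.

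Brakes on the pathway had 3 of 10 genes above (30%) and 3 below (30%), beside 25.4% and 22.9% of all tested genes. USP18, a protease that removes ISG15 and dampens the receptor, was at 8.43 and 6.38 CPM in knockdown and 1.57 and 2.10 CPM in control, a log2 fold change of 2.01. SOCS1, an inhibitor of JAK kinases, was at 4.06 and 3.88 CPM in knockdown and 1.94 and 1.83 CPM in control. Both are induced by interferon. The phosphatases PTPN1 and PTPN11, the most abundant of the list, did not stand higher. PTPN1 was at 130 and 133 CPM in knockdown and 159 and 105 CPM in control, and PTPN11 at 86.0 and 79.2 CPM in knockdown and 134 and 88.0 CPM in control. The counts above and below were 5 and 4 without control replicate 2, and 4 and 4 without control replicate 1. They were 5 and 3 without knockdown replicate 2.

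Genes of RNA capping, decay and translation, the processes on which IFIT proteins act, had 1 of 14 genes above (7.14%) and 3 below (21.4%). The shares of all tested genes were 25.4% and 22.9%. The median log2 fold change of this list was −0.06. EIF3E, a translation initiation subunit, was at 687 and 667 CPM in knockdown and 766 and 819 CPM in control. EIF4G1 was at 615 and 647 CPM in knockdown and 736 and 459 CPM in control. XRN1, an RNA exonuclease, was at 11.9 and 9.72 CPM in knockdown and 14.0 and 13.7 CPM in control. EIF3C had 30.6 and 9.55 CPM in knockdown and 15.1 and 9.95 CPM in control and is uncertain, since a near-identical copy can share its reads. Without control replicate 1 the counts above and below were 8 and 5, without control replicate 2 they were 2 and 10, and without knockdown replicate 2 they were 2 and 4.

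**Figure D4:**
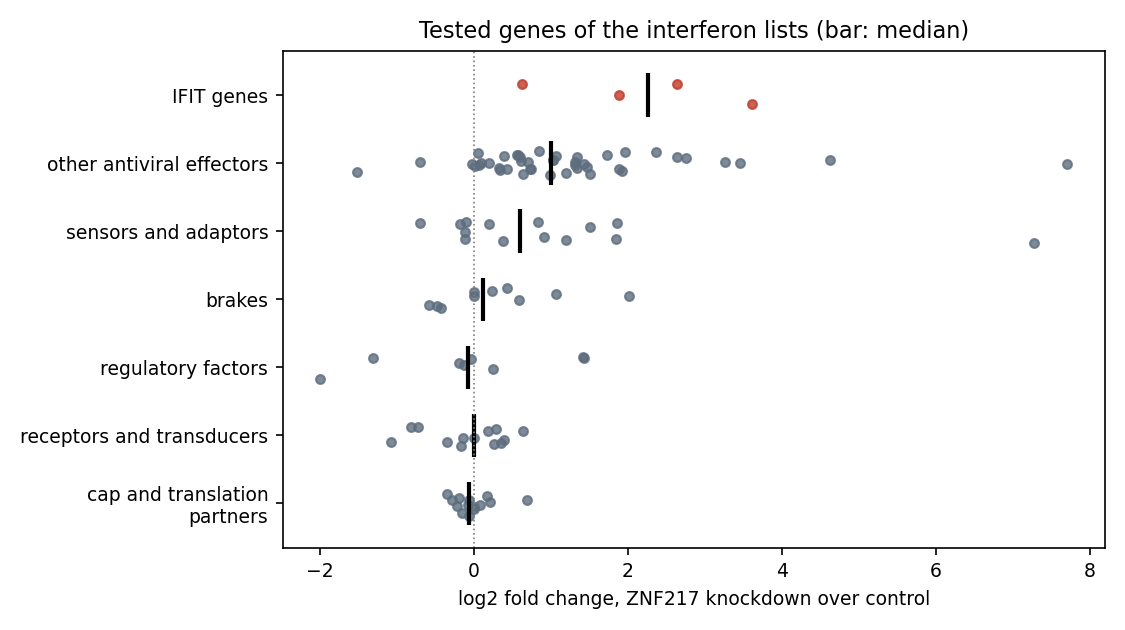
Log2 fold change (ZNF217 knockdown over control) of each tested gene in the IFIT family and 6 interferon lists, with 1 point per gene and a black bar at the median. The medians are 2.27 for the 4 IFIT genes, 1.01 for the other effectors and 0.60 for the sensors, and the points beyond 7 (IFI44L and AIM2) had 0 counts in both controls, so their place depends on the prior count.

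The genes whose pattern was most like that of each member were taken by the distance between mean-centred log2 CPM profiles over the 4 libraries. The nearest to IFIT1 was IFIH1, at a distance of 0.04 on the log2 scale, followed by MYO5B and GLT8D2 at 0.14 and 0.16. IFIT5 had STK38, MFSD5 and DOCK10 at 0.04 to 0.06. The nearest to IFIT2 were AC005747.1, TFEC and EPSTI1, at 0.12, 0.17 and 0.19, of which EPSTI1, an interferon-stimulated gene, was at 16.9 and 15.6 CPM in knockdown and 3.05 and 1.78 CPM in control, and the other 2 were below 1 CPM in every library. IFIT3 had AIM2, SERTM2 and SPP1 at 0.37 to 0.38, with SPP1 the only abundant one among these 3. For genes with almost no control counts the distance depends on the prior count. The fitted log2 fold changes of AC005747.1 and TFEC were 4.48 and 4.29, against 2.64 for IFIT2. That of AIM2 was 7.28, against 3.61 for IFIT3. The distances between members were 0.98 for IFIT2 and IFIT3, 1.00 for IFIT1 and IFIT2, and 2.96 for IFIT3 and IFIT5. With 4 libraries in 2 groups, such likeness is mainly that of the difference between groups.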

How the data were processed

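The authors deposited whole-read counts per gene, 1 column per library, not normalized. They also deposited a signal per library, which equals count divided by gene length scaled to 10 times the sum of TPM, and a comparison table with a mean signal, log2 fold changes, a test score and p-values (DESeq2, per the file headers). Trimmomatic, HISAT2, Subread and DESeq2 with GRCh38 are named in the submitters' processing notes, without versions, and no source used here gives the strand setting or annotation. The authors' table was used for no test.

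Counts were fitted for all genes with edgeR 4.0.16 in R 4.3.3 (quasi-likelihood, TMM, low-count filter at its defaults of 10 counts and a total of 15, no covariate), two-sided, with Benjamini-Hochberg adjustment over 12965 genes. The fit was also run on simulated counts with the same spread for every gene in both groups. The groups here differ in spread, so that run does not check the fit for such data. CPM is the count over the TMM-scaled total. TPM was computed from counts and deposited lengths. The standard error is the log2 fold change over the root of the test's F. Identity of coding sequences came from global alignment (Biopython 1.88), and figures from matplotlib 3.10.9. DESeq2 1.42.0 and limma 3.58.1, other scalings and filters, a replicate block and each library left out were alternatives. The members and lists were chosen with earlier results of these data known. Named from each list were the 2 genes with the highest mean CPM and the 2 with the largest absolute log2 fold change, beside neighbours within 100 kb and the 3 nearest profiles per member. Protein sequences were not used here. There is 1 gene that is counted in these lists but not itself reported here.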

Additional observations from a re-analysis of the deposited data

How the results depend on the processing

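The median log2 fold change of the 4 IFIT genes was 2.27, and it lay between 2.17 and 2.38 under the 11 alternatives run, with the lowest and highest values among those that leave out a library at 2.17 and 2.36. Each member kept its direction in all of them. The count of genes called by edgeR was 0 higher and 0 lower, but 16 and 3 without a low-count filter, and 209 and 264 by DESeq2. With a library left out the count ranged from 12 to 3710 higher and from 3 to 3729 lower, and the pathway genes with groups apart ranged from 72 to 99, against 64 with all libraries; with fewer libraries groups lie apart more easily. The replicate block gave 160 higher and 124 lower genes and a log2 fold change of 3.62 for IFIT3 and 0.66 for IFIT5. Same-numbered libraries did not deviate together (correlation −0.03 over genes, which are not replicates), so the numbers were not taken as pairs. The cause of these changes in the counts was not tested. With 2 libraries a group, depth limits only the scarce genes, since 0 counts allow up to 0.139 CPM.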

Other observations

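The response element core was also set against the difference between groups over all tested genes with a RefSeq window, as a description without a test. With the IFIT members left out, 33.1% of 417 genes with at least 1 match lay above both controls in both knockdown libraries, against 25.0% of 9961 genes without one. Below both controls lay 19.4% of those with a match and 23.2% of those without. The median log2 fold changes were close, at 0.07 with a match and −0.01 without. Among 38 genes with 2 or more matches in a window 44.7% lay above and 18.4% below, with a median log2 fold change of 0.24. Of the 417 genes 25 were listed effectors, 18 of them above. Of the 38 genes 10 were listed effectors, 6 of them above. The effectors were listed with earlier results of these data known, so the values for the 417 and the 38 genes depend in part on that choice. Within the other antiviral effectors the share above was 72% of 25 genes with a match and 88.9% of 9 genes without one. The core was present in 4.38% of all 27305 genes with a window. Among listed genes with a window it was present in 26 of 36 effectors, 4 of 12 sensors and adaptors, 5 of 18 interferon ligands, 2 of 8 brakes, 1 of 11 genes of RNA capping, decay and translation, 0 of 11 receptors and transducers and 0 of 6 regulatory factors. It was present in 1 of 11 neighbours of the cluster, ACTA2.

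The authors' deposited table gives the IFIT genes smaller differences than the counts do. Its log2 fold changes, control over knockdown, are −1.62 for IFIT3, −1.15 for IFIT2, −1.07 for IFIT1 and −0.12 for IFIT5. In the authors' deposited table the mean normalized count of IFIT3 is 237, below the lowest of the 4 deposited counts, which is 364, that of IFIT1 is 104, below a lowest count of 307, and that of IFIT2 is 212, below a lowest count of 217. For IFIT5 the mean in the authors' deposited table is 724, within the range of its deposited counts, 370 to 847. The libraries that entered the authors' deposited table are not stated in the sources used here.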
